A study of Mus musculus with 8 samples.

Results

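The macrophage nuclei of cultured mouse islets form 6 of the 54 columns of the deposited table, 1 for each condition, and were taken as the columns whose names end in Macrophage; the other 48 columns hold beta, alpha, delta, PP, endothelial, muscle, neuron and ductal nuclei. Islets came from wild type mice (WT) and from mice with the Med14S983A mutation, in which a serine of the Mediator subunit Med14 is replaced by alanine. Before isolation of nuclei the islets received no drug (CON), the adenylyl cyclase activator forskolin (FSK), which raises cAMP, or the GLP-1 receptor agonist Exendin-4 (Ex-4; 10 nM, 16 h). Nuclei were profiled by single nucleus RNA-seq with combinatorial barcoding, in 8 sublibraries that mix nuclei of every condition. Each condition had barcode wells of its own. The study's text gives 16 h for FSK in islets, the labels give no dose of it for these samples, and animal ages were not given in the sources used here. The knock-in is carried by the whole body, so the macrophages and every other islet cell of a mutant column bear it.

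Islets contain a resident population of macrophages that sits close to the blood vessels and the endocrine cells, takes up material from its surroundings and presents antigen. Such cells depend on signalling through the colony stimulating factor 1 receptor, use lineage factors of the Ets, Runx and Irf families, and carry a large lysosomal system for the digestion of engulfed protein and lipid. In macrophages, as in beta cells, cAMP acts through protein kinase A and CREB, and macrophages terminate the signal with phosphodiesterases.

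Each column holds the pooled counts of the macrophage nuclei of 1 condition, so no comparison has a replicate and none could be tested. Values are given as counts or as CP10K (counts per 10000 counts of the column), and intervals are exact 95% Poisson or Clopper-Pearson intervals that cover counting error only. The macrophage columns held 41722 counts in WT CON, 48223 in WT FSK, 16941 in WT Ex-4, 46597 in Med14S983A CON, 14604 in Med14S983A FSK and 14889 in Med14S983A Ex-4. Of all counts of a condition they made up 1.03% for WT CON, 1.20% for WT FSK and 1.24% for Med14S983A CON, but 0.417% in WT Ex-4, 0.358% in Med14S983A FSK and 0.408% in Med14S983A Ex-4. The Clopper-Pearson intervals of the former 3 shares lay above 1%, from 1.02% to 1.26%, and those of the latter 3 lay between 0.352% and 0.423%. Fewer macrophage nuclei and less RNA per nucleus cannot be told apart, since nuclei are not counted in the table.

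A zero in these columns has more than 1 meaning. Of 17362 genes, 1765 in WT CON, 2927 in WT FSK, 5048 in WT Ex-4, 3808 in Med14S983A CON, 387 in Med14S983A FSK and 5918 in Med14S983A Ex-4 were listed at 0 in all 9 cell types. In WT Ex-4 the lowest summed count above 0 was 5 and in Med14S983A Ex-4 it was 10, whereas 1373 genes of WT CON and 2254 of Med14S983A FSK had summed counts of 1 to 4. A gene listed at 0 in every cell type of a condition is therefore called unlisted there, and no fold is given against that condition.

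The 4 markers of the population were found almost solely in its columns. Ptprc, the leukocyte phosphatase CD45, had 83 counts in macrophages, with 41 in WT CON, 30 in Med14S983A CON and 12 in Med14S983A FSK. Its level was 9.83, 6.44 and 8.22 CP10K in these columns, and it was unlisted in the other 3 conditions. Summed over all 6 columns, with the unlisted ones taken as 0, its level was 4.54 CP10K (3.61 to 5.62). Csf1r, the receptor for colony stimulating factor 1, had 14 counts in WT CON, 16 in WT FSK, 11 in Med14S983A CON and 5 in Med14S983A FSK. Adgre1, which encodes the F4/80 antigen, had 18, 20, 17 and 5 counts in the same 4 columns. Both were unlisted in the 2 Ex-4 conditions, so the Ex-4 columns hold none of these markers. Other macrophage genes were counted there: Mitf, Dock2 and Fyb, described below, had 25, 28 and 22 counts in WT Ex-4 and 11, 9 and 11 in Med14S983A Ex-4. Mrc1, the mannose receptor, had 5 counts in WT CON and 11 in WT FSK; it was listed in 3 conditions, and its 16 counts lay below the minimum of 20 used for all other genes.

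Over the highest other cell type, the summed level was 40.6-fold for Ptprc (interval 10.9 to 341.2, against 2 counts in neurons), 547-fold for Csf1r (245.3 to 1436, against 7 counts in beta cells), 102.9-fold for Mrc1 (29.5 to 551, against 3 counts in alpha cells) and 228.1-fold for Adgre1 (39.4 to 9160, against 1 count in endothelial nuclei), a median of 165.5-fold, which became 390.8 without WT CON and 289.2 without Med14S983A FSK. The intervals are wide because the other cell types hold so few of these reads. In mm39 coordinates and the GENCODE annotation, Ptprc lies at chr1:137990599-138103446 on the minus strand, Mrc1 at chr2:14234151-14336926 on the plus strand and Adgre1 at chr17:57665573-57790527 on the plus strand.

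**Figure D1:**
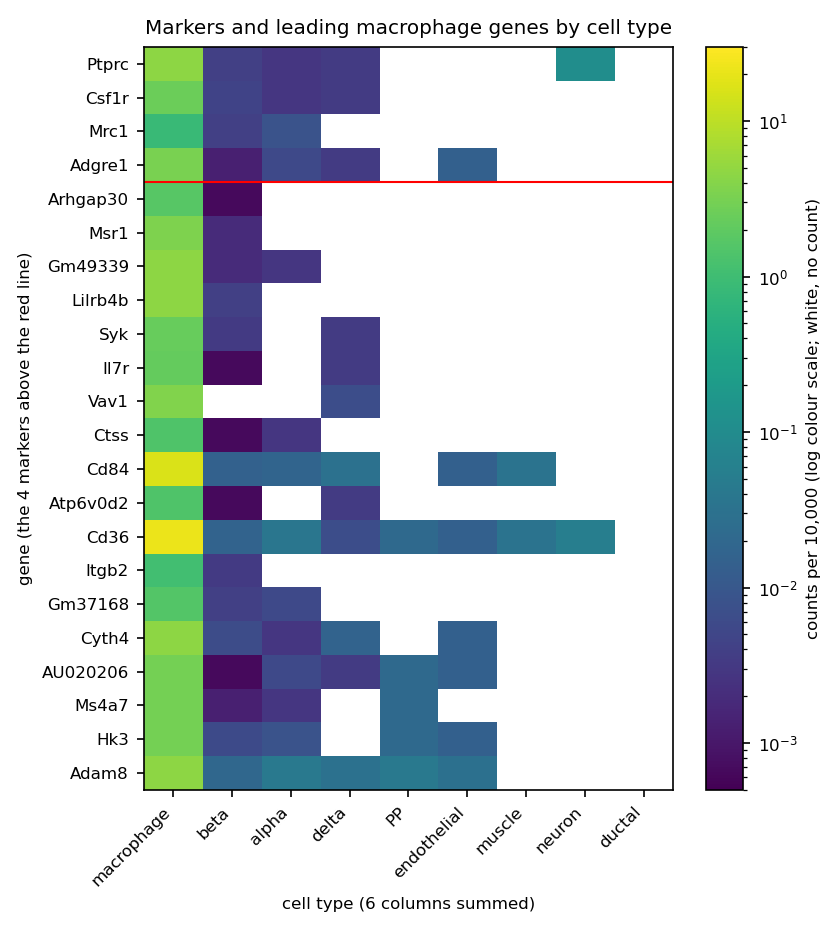
Summed level in CP10K (log colour scale) of the 4 markers, above the red line, and of the other genes among the 20 with the highest fold over every other cell type, in 9 cell types; white means no count. The macrophage column is the brightest in every row, with 22.1 CP10K for Cd36 and 16.2 for Cd84.

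Of 2066 genes with at least 20 macrophage counts, 160 (7.74%) stood at least 4-fold above every other cell type. This identity set held 17510 counts, 9.57% of all macrophage counts. Of its members, 68 stood at least 10-fold and 22 at least 100-fold above every other type, and 198 further genes lay between 2-fold and 4-fold. The next highest cell type was most often the neuron (43 genes), then endothelial (31), ductal (23) and muscle (22) nuclei. The fold was 4 for Lyn, just inside the set, and 3.997 for Nrros, just outside it. Of the 160 genes, 94 were listed in all 6 conditions, 66 were unlisted in Med14S983A Ex-4, 44 in WT Ex-4, 26 in WT FSK, 8 in Med14S983A CON, 2 in WT CON and 1 in Med14S983A FSK. Summed levels divide by the totals of all 6 columns, so they understate a gene that is unlisted in some. Of the genes named below, Vav1, Syk, Msr1, Gpnmb, Irf8, Ikzf1 and Cd86 were listed in 3 conditions and Ctss in 2. Their CP10K values are therefore not on a par with those of genes listed throughout.

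Promoter windows of 300 bases around the start site were available for 125 of the 160 identity genes (RefSeq, GRCm38.p6, a build other than that of the counts). The letters GAGGAAGT, a form of the purine-rich site bound by the Ets factor PU.1 of macrophages, were searched on both strands. They were in a window of 9 of the 125 genes (7.2%), Vav1, Ctss, Cyth4, Nlrp1b, Apbb1ip, Arhgap25, Nceh1, Abr and Sh3bp2, against 4.34% of the 1659 genes with at least 20 macrophage counts and a window, and 3.69% of all 27025 genes with a window. The shorter AGGAAG, which is contained in it, was in a window of 51.2%, 39.6% and 38.4% of them. Counted per window, GAGGAAGT was in 5.78%, 3.29% and 3.2%. The windows of the 3 genes among the 20 highest folds that hold GAGGAAGT are printed below to show where the letters stand, with GAGGAAGT or its complement ACTTCCTC in capitals, and that of the pan-leukocyte marker Ptprc, which holds only the shorter letters, with AGGAAG or CTTCCT in capitals. They are chr17:57278850-57279149, chr3:95526536-95526835 and chr15:78596797-78597096 on the plus strand and chr1:138175256-138175555 on the minus strand, 5′ to 3′.
Vav1: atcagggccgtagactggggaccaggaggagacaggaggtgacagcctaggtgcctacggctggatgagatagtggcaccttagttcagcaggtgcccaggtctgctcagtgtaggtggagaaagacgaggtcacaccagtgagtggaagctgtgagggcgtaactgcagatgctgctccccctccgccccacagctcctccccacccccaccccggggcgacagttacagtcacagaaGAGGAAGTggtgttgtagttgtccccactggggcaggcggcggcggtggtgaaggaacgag
Ctss: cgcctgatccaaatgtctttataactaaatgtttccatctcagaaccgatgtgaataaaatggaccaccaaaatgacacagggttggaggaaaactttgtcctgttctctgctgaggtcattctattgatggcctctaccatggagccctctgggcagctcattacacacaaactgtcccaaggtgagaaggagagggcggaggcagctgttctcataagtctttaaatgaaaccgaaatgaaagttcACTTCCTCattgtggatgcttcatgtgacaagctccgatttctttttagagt
Cyth4: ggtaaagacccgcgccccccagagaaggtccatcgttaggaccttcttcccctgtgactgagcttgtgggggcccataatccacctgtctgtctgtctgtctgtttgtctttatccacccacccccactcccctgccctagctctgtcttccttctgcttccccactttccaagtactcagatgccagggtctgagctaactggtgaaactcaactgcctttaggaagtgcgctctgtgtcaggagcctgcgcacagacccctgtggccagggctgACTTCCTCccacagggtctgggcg
Ptprc: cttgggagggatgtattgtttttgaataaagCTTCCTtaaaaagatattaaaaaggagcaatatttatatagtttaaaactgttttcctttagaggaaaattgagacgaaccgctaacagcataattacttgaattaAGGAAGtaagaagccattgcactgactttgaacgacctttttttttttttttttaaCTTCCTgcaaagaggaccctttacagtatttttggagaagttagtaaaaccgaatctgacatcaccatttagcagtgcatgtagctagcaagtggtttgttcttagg

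Leukocyte signalling was the list with the most members in the identity set. Of 26 genes in the list, 22 were in the table, 20 had at least 20 macrophage counts and 14 were in the identity set. Dock2, an activator of the small GTPase Rac in blood cells, had 21.5 CP10K (24.1-fold over the next type), Fyb, an adaptor of integrin signalling, 18.8 CP10K (30.6-fold), and the unconventional myosin Myo1f 9.89 CP10K (88.6-fold). Vav1, the exchange factor whose promoter is printed above, had 3.66 CP10K (544-fold, interval 144.9 to 4586), and the kinase Syk 2.30 CP10K (682-fold, interval 115.9 to 27580, against 1 count in delta cells). Members shared with the endothelium had lower folds: the phosphatase Inpp5d reached 1.48-fold, Elmo1 1.59-fold and Dock8 1.21-fold over endothelial nuclei.

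Among lineage transcription factors, 15 of 20 were in the table, and Spi1, which encodes PU.1, was not. Of those in it, 11 had at least 20 macrophage counts and 3 were in the identity set. These were Mitf (22.5 CP10K, 15.7-fold), a regulator of lysosomal genes, Ikzf1 (2.30 CP10K, 41.1-fold) and Irf8 (1.75 CP10K, 6.76-fold), both factors of blood cell development. Zeb2, a repressor active in mature macrophages, was the most counted at 42.2 CP10K, 2.81-fold over muscle nuclei. Runx1 and Fli1 were no markers here: Runx1 stood at 7.11 CP10K, below the 16.3 CP10K of muscle nuclei, and Fli1 at 13.9 CP10K against 12.3 in endothelial nuclei.

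Of 25 growth factor, scavenger and phagocytic receptors, 12 were in the table, 7 had at least 20 counts and 5 were in the identity set. Cd36, a receptor for oxidized lipid and fatty acids, had 22.1 CP10K against 0.0558 in neurons, its next type. Mertk, which recognises dying cells, had 9.24 CP10K (6.13-fold over neurons), Stab1 10.4 CP10K (6.12-fold over endothelial nuclei) and the scavenger receptor Msr1 3.55 CP10K. Other members stood elsewhere: the receptor kinase Axl had 0.874 CP10K against 3.45 in muscle nuclei, Colec12 had 0 counts against 3.03 CP10K in muscle nuclei, and the Toll-like receptor Tlr4 was 1.83-fold over endothelial nuclei. Of 17 adhesion and chemokine receptors, 12 were in the table, 7 had at least 20 counts and 6 were in the identity set, led by Cd84 (16.2 CP10K) and the integrin Itga9 (16.3 CP10K, 5.98-fold). The chemokine receptor Cx3cr1 was scarce, with 12 counts.

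Lysosome, lipid and iron genes made the second large group: 21 of 23 were in the table, 17 had at least 20 counts and 11 were in the identity set. The proteases Ctsb (12.7 CP10K, 9.28-fold) and Lgmn (7.54 CP10K, 19.3-fold), the acid lipase Lipa (4.59 CP10K, 41.1-fold) and the lysosomal glycoprotein Gpnmb (9.84 CP10K, 100.8-fold) were among them. The cholesterol exporter Abca1 stood close to Cd36 at 22.4 CP10K and missed the 4-fold line at 3.97-fold over endothelial nuclei. Of 18 complement and antigen presentation genes, 11 were in the table, 4 had at least 20 counts, and Cd86, a costimulatory ligand (2.19 CP10K), and the protease Ctss (1.42 CP10K) were in the identity set. Of 26 cytokines and inflammatory genes, 11 were in the table, 4 had at least 20 counts and 0 were in the identity set; Vegfa, the most counted, stood at 3.498 CP10K against 19.1 in muscle nuclei. The gene with the most counts in the identity set was in none of the lists: Lrmda, a gene of melanocyte differentiation, had 1738 counts (94.99 CP10K), 7.85-fold over endothelial nuclei.

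Few markers of other leukocytes were in the table: 3 of 7 for B cells, 2 of 7 for dendritic cells, 1 of 6 for monocytes, 1 of 7 for neutrophils and mast cells and 5 of 10 for T and NK cells. The T and NK cell markers summed to 1.59 CP10K, of which Skap1 gave 27 counts and stood at 6.68 CP10K in beta cells. The B cell markers had 2 counts in all, the dendritic cell markers 3, the monocyte marker 1, and Csf3r, a marker of neutrophils, 19. Markers of ductal and acinar cells were at 0 counts, those of mural cells and fibroblasts at 2 and those of endothelial cells at 13, of which 7 were in Med14S983A Ex-4.

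Endocrine transcripts were present in every macrophage column. The 9 beta cell markers, each counted at least once, summed to 34 counts in WT CON, 26 in WT FSK, 11 in WT Ex-4, 67 in Med14S983A CON, 6 in Med14S983A FSK and 14 in Med14S983A Ex-4. As a percent of their level in the beta cells of the same condition this was 12.4, 9.56, 12.9, 30.8, 7.75 and 20.04, with 15.8, 5.71, 3.92, 16.0, 12.4 and 25.4 in endothelial nuclei. The 6 alpha cell markers ran from 0.744% of their alpha cell level in WT FSK to 15.7% in Med14S983A Ex-4. Ins2 had 26 of its 51 macrophage counts in Med14S983A CON. The 4 markers of delta cells had 13 counts; the 3 listed in all conditions stood at 29.5% of their delta cell level in Med14S983A CON and 30.2% in Med14S983A Ex-4, from 6 and 2 counts, and at 0% to 9.03% in the other columns. The markers of PP cells had 4 counts and those of neurons and glia 29.

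Ribosomal RNA linked and mitochondrial genes divided the columns. They took 4.08% of macrophage counts for WT CON, 3.29% for WT FSK and 3.51% for Med14S983A FSK, but 8.97% in WT Ex-4, 11.9% in Med14S983A CON and 18.0% in Med14S983A Ex-4. The beta cells of the same conditions had 3.97%, 3.17%, 3.08%, 10.3%, 13.2% and 16.4% in that order, so the split was not in the macrophages alone. An exception was the ductal column of WT Ex-4, at 3.97% against 7.95% in WT CON. Rn18s-rs5 had 7068 of the 13543 counts of this list in macrophages. Most others came from Cmss1 (1571), Lars2 (1408), Gphn (1240), Cdk8 (994), Gm19951 (589), Camk1d (424), Rn7sk (97) and Filip1l (67). The mitochondrial mt-Rnr2 and mt-Rnr1 had 40 and 31. Cmss1, Lars2, Gphn, Cdk8, Camk1d and Filip1l are protein coding genes, so the share is not one of ribosomal and mitochondrial RNA alone.

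**Figure D2:**
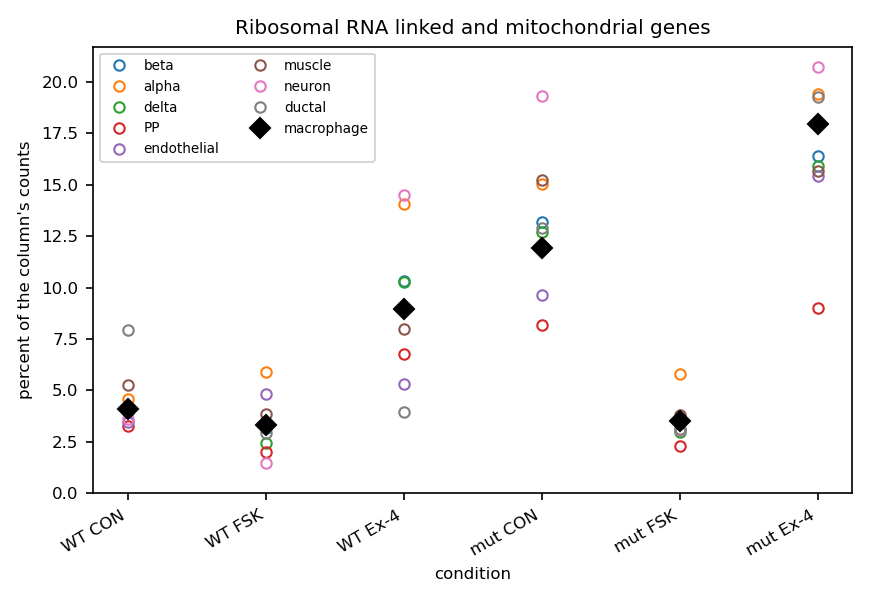
Percent of each column's counts in ribosomal RNA linked and mitochondrial genes, by condition (mut, Med14S983A); black diamonds are macrophages and open circles the other 8 cell types. The macrophage share is 3.29% to 4.08% in WT CON and both FSK columns and 8.97% to 18.0% in the other 3.

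The levels of 3 large macrophage lists ran the other way. Summed over the 14 genes listed in all conditions, leukocyte signalling stood at 194.6 CP10K for WT CON, 207.4 for WT FSK and 145.2 for Med14S983A FSK, and at 124.5 in WT Ex-4, 86.5 in Med14S983A CON and 61.8 in Med14S983A Ex-4. The 10 lineage transcription factors stood at 125.6, 134 and 112.3 CP10K in the former 3 columns and at 66.7, 56.2 and 29.6 in the latter. The 16 lysosome, lipid and iron genes stood at 112.2, 136.7 and 91.1 against 85.0, 57.3 and 35.6 CP10K. In all 3 lists the column with the highest ribosomal RNA linked share, Med14S983A Ex-4, was the lowest. Growth factor and phagocytic receptors (10.1 CP10K) and adhesion and chemokine receptors (2.69 CP10K) were also lowest there. Complement and antigen presentation genes (5.37 CP10K, 2.32 to 10.6, 8 counts) and cytokines and inflammatory genes (12.8 CP10K, 7.68 to 19.9, 19 counts) instead had their highest values there. Both intervals overlapped those of Med14S983A CON, 2.29 to 6.1 and 7.96 to 14.15. The former sum covers 4 genes and leaves out Cd86 and Ctss, and 11 of the 19 counts of the latter were of Vegfa. The part of the ribosomal RNA linked share and of the endocrine transcripts in these differences was not tested.

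**Figure D3:**
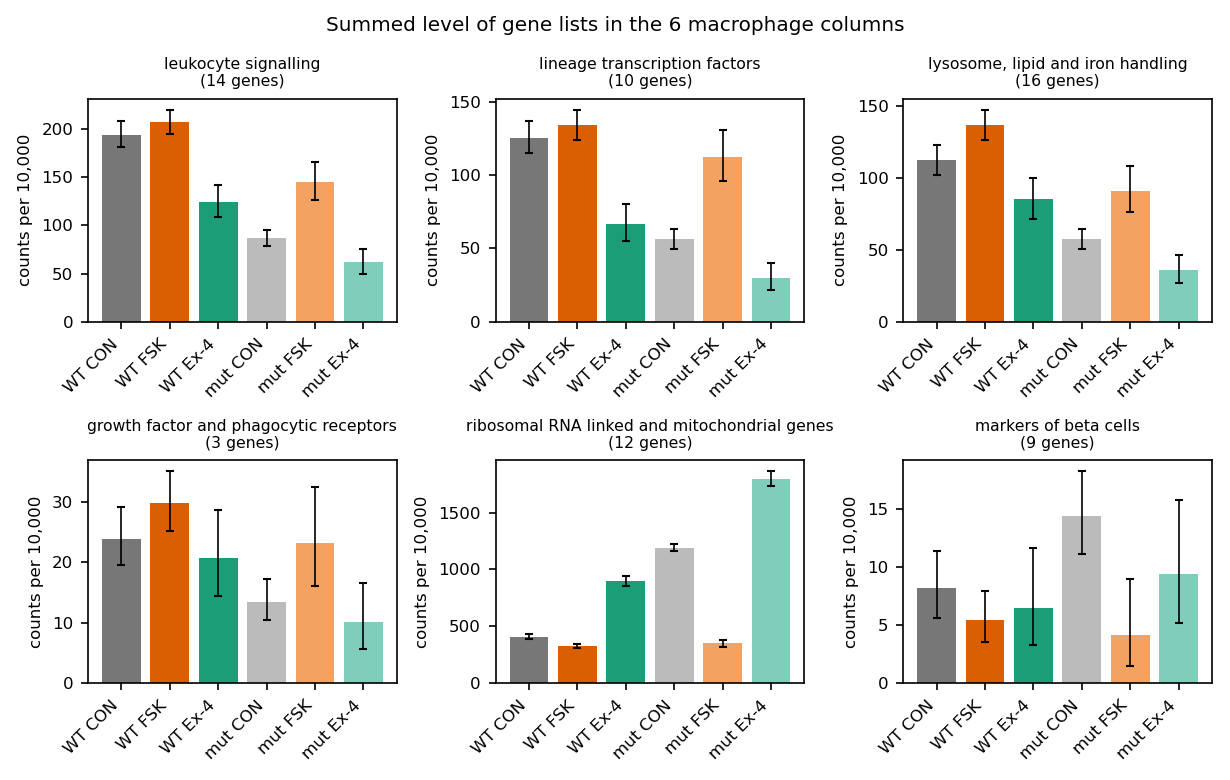
Summed CP10K of 6 gene lists in the 6 macrophage columns (mut, Med14S983A), over the genes listed in all conditions; bars are single pooled columns and error bars exact 95% Poisson intervals. The 3 upper lists are lowest in Med14S983A Ex-4, where the ribosomal RNA linked list is highest at 1796 CP10K.

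Med14 itself was counted 10 times in macrophages: 1 count in WT CON, 3 in WT FSK, 1 in WT Ex-4, 3 in Med14S983A CON, 1 in Med14S983A FSK and 1 in Med14S983A Ex-4. A point mutation does not show in such counts, so they check no label. All 33 Mediator subunits in the list were in the table and 6 had at least 20 macrophage counts. Cdk8, the kinase of the Mediator module, had 994 of the 1291 counts of the list; it is also a member of the ribosomal RNA linked list, and the other subunits reached at most 3.44 CP10K against 54.3 for Cdk8. None of the subunits was in the identity set. Glp1r, the receptor for Ex-4, had 22 counts in macrophages (1.20 CP10K), 0.172 times its level in beta cells; Ins1, Slc2a2 and Iapp stood at 0.143, 0.148 and 0.102 times theirs.

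The first comparison asked what FSK changed in the macrophages of each genotype. Pde10a, Gnas, Trps1, Prdx1, Entpd1 and Tmcc3 were at least 2-fold higher after FSK in both genotypes, and Peg3, Cmss1, Prpf38b, Slc24a2 and Abcc8 at least 2-fold lower. These 11 genes were all that moved past 2-fold the same way among 382 genes well counted in both pairs of columns, where well counted means at least 20 counts over both columns. The pairs share no column, but whether this overlap is larger than the shares of the pairs alone would give was not tested. Of the 382 genes, 163 were above and 71 below their CON level in both.

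In WT, 57 of 993 well counted genes were at least 2-fold higher after FSK (5.74%) and 64 lower (6.45%); 21 of the lower ones were unlisted in WT FSK, which leaves 43. In Med14S983A, 98 of 453 were higher (21.6%) and 53 lower (11.7%), 1 of them unlisted. The Poisson intervals of both columns did not overlap for 16 of the higher and 10 of the lower listed genes in WT, and for 35 and 9 in Med14S983A. The median ratio was 1.06 in WT and 1.24 in Med14S983A, and with the median set to 1 the counts became 42 higher and 76 lower in WT and 45 and 83 in Med14S983A.

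Gnas, which encodes the stimulatory G protein alpha subunit upstream of adenylyl cyclase, was counted 9 times in WT CON and 45 times in WT FSK, 21 times in Med14S983A CON and 24 times in Med14S983A FSK, with 3 and 14 counts in the Ex-4 columns of WT and Med14S983A. The FSK to CON ratio of its CP10K level was 4.33 (2.09 to 10.1) in WT and 3.65 (1.95 to 6.89) in Med14S983A. Both FSK columns stood above their CON column. In the beta cells of the same conditions the ratio was 6.05 and 5.02, in delta cells 4.85 and 6.25, and in alpha cells 0.789 and 1.01. Over all 6 columns Gnas stood at 6.34 CP10K in macrophages, 6.70 in beta, 20.2 in alpha and 58.8 in delta cells.

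Pde10a, a phosphodiesterase that degrades cAMP, had 36 counts in WT CON and 90 in WT FSK, 33 in Med14S983A CON and 50 in Med14S983A FSK, and 6 and 13 in the Ex-4 columns. Its ratio was 2.16 (1.45 to 3.28) in WT and 4.83 (3.05 to 7.75) in Med14S983A. The beta cells showed ratios of 3.46 and 4.69 and the alpha cells 7.99 and 9.90, so Pde10a was higher after FSK in endocrine and macrophage columns alike. Pde10a was also the only one of the cAMP-induced response genes that was well counted in these pairs.

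Trps1, a GATA-type zinc finger repressor, had 34 counts in WT CON and 92 in WT FSK, and 12 and 23 in the same columns of Med14S983A (ratios 2.34 and 6.12). In beta cells its ratio was 1.20 in WT and 3.15 in Med14S983A. Entpd1, the ectonucleotidase CD39 and a member of the identity set, had 12 and 45 counts in WT and 12 and 8 in Med14S983A (ratios 3.24 and 2.13); the interval of the latter, 0.754 to 5.66, included 1. Prdx1, a peroxidase also of the identity set, had 22 and 52 counts in WT and 16 and 18 in Med14S983A (ratios 2.05 and 3.59). Over the next cell type, Prdx1 stood 5.58-fold above neurons and Entpd1 5.05-fold above endothelial nuclei. Entpd1 had 0 counts in the beta cells of WT CON and 5 in those of WT FSK.

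**Figure D4:**
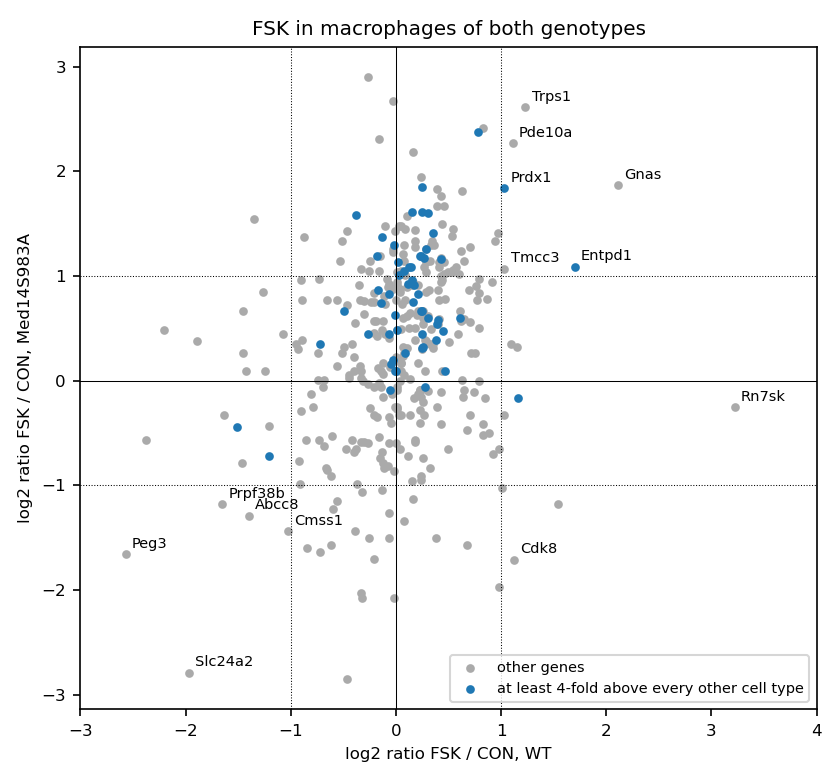
Log2 ratio of FSK to CON in macrophages of WT (x axis) and Med14S983A (y axis) for 382 genes well counted in both pairs; blue points are genes at least 4-fold above every other cell type and dotted lines mark 2-fold. Gnas, Pde10a, Trps1, Prdx1, Entpd1 and Tmcc3 lie beyond both upper lines, and most blue points lie above 0 on the y axis.

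On the lower side, the imprinted zinc finger gene Peg3 had 36 counts in WT CON and 7 in WT FSK, and 111 and 11 in Med14S983A (ratios 0.168 and 0.316). Cmss1, of the ribosomal RNA linked list, had 239 and 135 counts in WT and 615 and 71 in Med14S983A (ratios 0.489 and 0.368). The sulfonylurea receptor gene Abcc8, which is an endocrine gene, had ratios of 0.378 and 0.409. Peg3 was lower after FSK in the beta cells too, at ratios of 0.344 and 0.242. In the macrophage columns the summed beta cell markers went from 8.15 to 5.39 CP10K in WT and from 14.4 to 4.11 in Med14S983A. The alpha cell markers went from 2.88 to 1.04 in WT but from 5.58 to 8.90 in Med14S983A. The part of endocrine transcripts in the higher genes, Gnas and Pde10a among them, and in the lower genes was not tested.

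Other genes led each pair. In WT the highest ratios with intervals apart were those of Efna5 (1 count in CON, 21 in FSK), Syn3 (1 and 19), the small nuclear RNA Rn7sk (5 and 54), Tmem131 (3 and 19) and Gnas. The ratio was 18.2 (2.92 to 751.4) for Efna5 and 9.34 (3.77 to 29.9) for Rn7sk, which also stood at 4.80 in beta cells. Beside Peg3, the lowest were the ion channel regulator Kcnip1, the interleukin 1 receptor Il1r1 (21 counts in CON and 5 in FSK, ratio 0.206), the muscarinic receptor Chrm3 and the nuclear receptor Rora.

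In Med14S983A the highest ratios with intervals apart included those of Runx1 (11 counts in CON, 22 in FSK, ratio 6.38, 2.97 to 14.6), Trps1, Rai14 and the galectin Lgals3 (19 and 31, ratio 5.21). In WT the ratio of Runx1 was 0.979. The lowest were Rn18s-rs5 (2964 and 220, ratio 0.237), Chga (34 and 0, at least 3.55-fold lower against a floor of 3 counts), Cdk8, Peg3 and Lars2.

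The lists followed the same division. In Med14S983A, 5 of 16 well counted leukocyte signalling genes were higher and 0 lower, with a median ratio of 1.60, and 4 of 10 lysosome, lipid and iron genes were higher and 0 lower, with a median of 1.82. Over all genes of the pair 21.6% were higher, as given above, and the median over listed genes was 1.24. Of 8 ribosomal RNA linked genes, 6 were lower in Med14S983A and 0 higher. In WT, 2 of 9 were higher, Cdk8 and Rn7sk, which is also of this list, and 1 was lower, Cmss1. Of the identity set, which was chosen on these same columns, 29 of 74 well counted genes were higher and 0 lower in Med14S983A, and 7 of 115 higher and 2 lower in WT. In WT, 0 of 13 leukocyte signalling genes passed 2-fold in either direction and the median was 1.07, against 1.08 over all genes. The cAMP pathway list had 2 of 7 genes higher in WT, where 5.74% of all were, Gnas and Pde10a, and 3 of 3 in Med14S983A, those and Pde4d, a cAMP phosphodiesterase with 16 counts in CON and 17 in FSK (ratio 3.39). The Med14S983A CON column, the base of the second pair, held 11.9% ribosomal RNA linked counts against 3.51% in Med14S983A FSK, and the part of this in the list values was not tested.

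**Figure D5:**
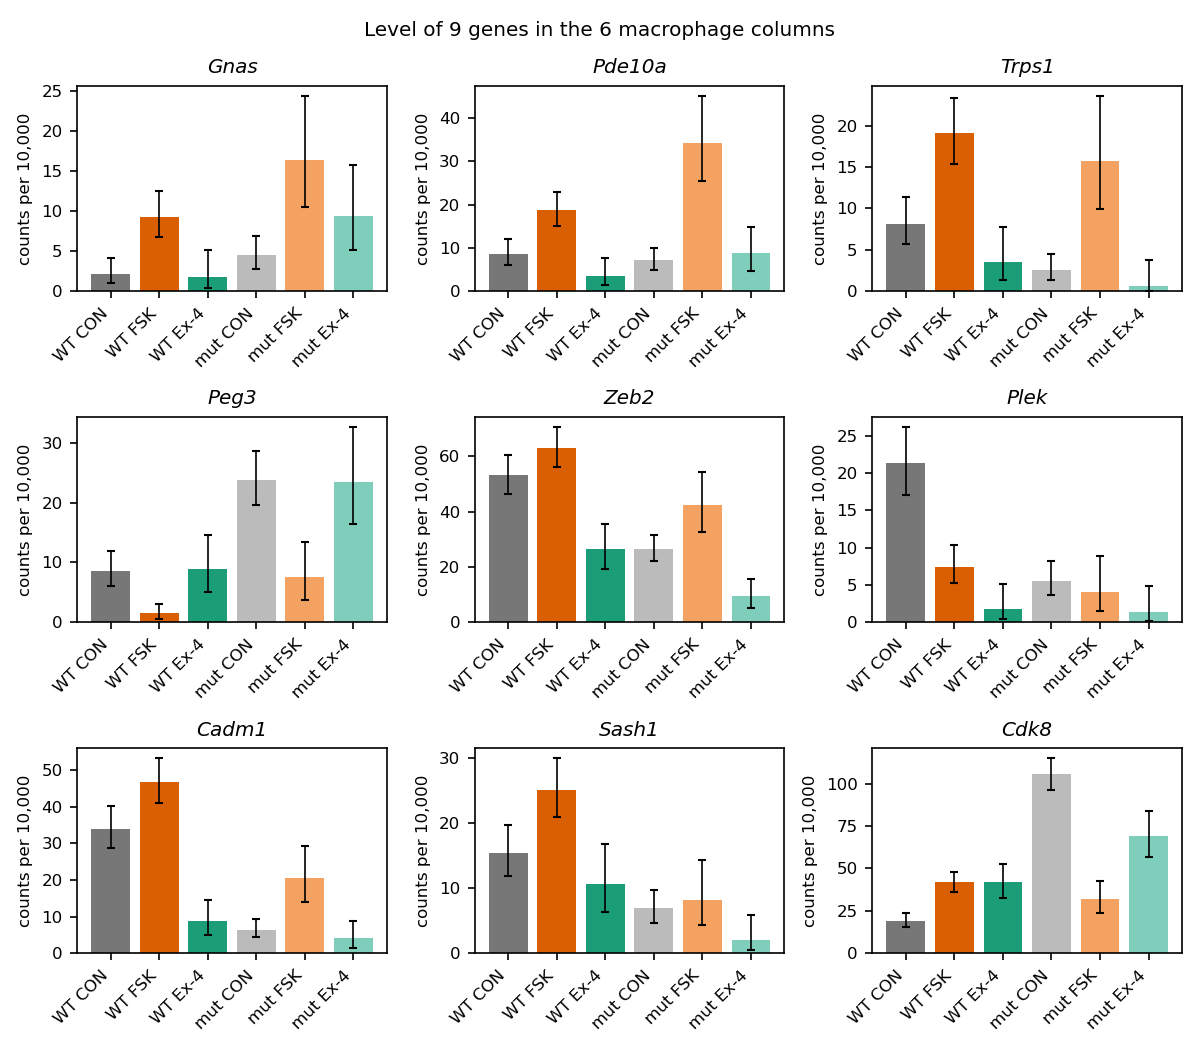
CP10K level of 9 genes in the 6 macrophage columns (mut, Med14S983A); bars are single pooled columns and error bars exact 95% Poisson intervals. Gnas, Pde10a and Trps1 are higher in the FSK columns than in the CON columns of both genotypes, Zeb2 and Plek are lowest in the Ex-4 columns, and Cdk8 is highest in Med14S983A CON at 105.6 CP10K.

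The second comparison asked what Ex-4 changed. Among well counted genes more were lower than higher after Ex-4 in both genotypes, a split that turned in WT when no minimum count was set. Filip1l, of the ribosomal RNA linked list, was the only gene past 2-fold higher in both. Among 281 genes well counted in both pairs, 20 were at least 2-fold lower in both: Lpl, Plek, Osbpl8, Birc6, Nrp1, Pip4k2a, Zeb2, Itgav, Mbnl1, Hpgds, Abhd12, Tcf12, Zswim6, Ankrd12, Sirpa, Itga9, Lyn, Lncpint, Pid1 and Tbc1d22a. These include the kinase Lyn (24 and 2 counts in CON and Ex-4 of Med14S983A) and the phagocytosis checkpoint receptor Sirpa (36 and 3). The integrins Itgav (25 and 2) and Itga9 (47 and 4) and the lipase Lpl (20 and 3) were others. Of these named genes only Itga9 had intervals apart in Med14S983A. The calls were not set against the median ratio of each pair, which lay below 1. Of the 281 genes, 51 were above and 123 below their CON level in both pairs. The size of this overlap was not tested against the shares of the pairs.

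The CON columns were deeper than the Ex-4 columns: 67 genes reached 20 counts in WT Ex-4 alone and 26 in Med14S983A Ex-4, against 373 in WT CON and 258 in Med14S983A CON. In WT, 21 of 553 well counted genes were higher after Ex-4 (3.8%) and 124 lower (22.4%), 25 of them unlisted in WT Ex-4, which leaves 99. In Med14S983A, 22 of 414 were higher (5.31%) and 99 lower (23.9%), 15 of them unlisted, which leaves 84. Intervals were apart for 10 higher and 29 lower listed genes in WT and for 3 and 13 in Med14S983A. The median ratio was 0.781 in WT and 0.824 in Med14S983A. With the median set to 1, there were 50 higher and 76 lower genes in WT and 51 and 67 in Med14S983A. With no minimum, and a difference of 1 in log2(CP10K + 1) as the threshold, the split turned in WT, to 445 higher and 368 lower, and was 338 and 553 in Med14S983A.

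Plek, the platelet and leukocyte protein pleckstrin, had 89 counts in WT CON, 3 in WT Ex-4, 26 in Med14S983A CON and 2 in Med14S983A Ex-4, and 36 and 6 in the FSK columns. Its ratio was 0.0830 (0.0168 to 0.251) in WT and 0.241 (0.0277 to 0.962) in Med14S983A. Zeb2 had 222 and 45 counts in WT and 124 and 14 in Med14S983A (ratios 0.499 and 0.353). Both genes were lower in each Ex-4 column than in the CON column of its genotype. Nrp1, a co-receptor for semaphorins and VEGF, had 92 and 11 counts in WT (ratio 0.295) and 26 and 0 in Med14S983A, at least 2.77-fold lower.

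Cd36 had 177 counts in WT CON and 11 in WT Ex-4, a ratio of 0.153 (0.0750 to 0.281), and was unlisted in Med14S983A Ex-4. The other lowest genes in WT with intervals apart were the cystine transporter Slc7a11 (27 and 1 counts), the channel Trpm3 (22 and 1) and Ccdc88a (33 and 2). The highest of that kind were Prrc2c (8 and 14 counts, ratio 4.31), Lars2 (170 and 278, ratio 4.03), Syne1, ENSMUSG00000095041 and Gm47283. Lars2 is of the ribosomal RNA linked list and had a ratio of 2.66 in beta cells.

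In Med14S983A the lowest with intervals apart were Ext1, a heparan sulfate polymerase (31 and 1 counts, ratio 0.101), Rab8b (39 and 2), Gm47283 (46 and 3), the sodium calcium exchanger Slc8a1 (55 and 4) and Itga9 (47 and 4). The highest of that kind were mt-Rnr2 (12 and 16, ratio 4.17), Hs6st3, Nalf1, Ptprn2 and Gm19951, of which the last 2 were below 2-fold, at 1.88 and 1.80; other genes past 2-fold had overlapping intervals.

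Of the identity set, which was chosen on these same columns, 21 of 74 well counted genes were lower and 0 higher in WT. In Med14S983A 18 of 39 were lower and 0 higher. Because the set was drawn from columns of which CON was the deeper, it cannot test a change after Ex-4. By list, 2 of 13 leukocyte signalling genes were lower in WT and 2 of 9 in Med14S983A, with medians of 0.621 and 0.615 against 0.821 and 0.857 over all listed genes, and 0 were higher. These counts leave out unlisted genes. Ptprc, Vav1, Arhgap25, Nckap1l and Apbb1ip, with 20 to 41 counts in WT CON, were unlisted in WT Ex-4. Over all listed genes, 99 of 528 in WT and 84 of 399 in Med14S983A were lower, so the shares of this list were near the background. Lysosome, lipid and iron genes had 2 of 11 and 2 of 8 lower, with medians of 0.786 and 0.563, also near the background share. Of 8 ribosomal RNA linked genes 6 were higher in WT, and of 10 in Med14S983A 2 were higher. Pde10a, higher after FSK, had a ratio of 0.410 (0.141 to 0.984) after Ex-4 in WT, from 36 and 6 counts, and 1.23 (0.596 to 2.41) in Med14S983A, from 33 and 13 counts. Both Ex-4 columns carried a higher ribosomal RNA linked share than the CON column of their genotype, 8.97% against 4.08% and 18.0% against 11.9%, and its part in the Ex-4 ratios was not tested.

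The last comparison asked how the Med14S983A macrophages differed from WT under each treatment. Among well counted genes more were lower than higher in the mutant column of each pair. In FSK this split turned when no minimum count was set. The WT FSK column held 48223 counts and the mutant 14604, and 452 and 61 genes reached the minimum count in these columns alone. Genes thus passed the minimum mostly through WT, and without it each count was worth 0.207 CP10K in WT and 0.685 in the mutant. With this depth gap neither FSK split can test a genotype difference. Sash1, Cadm1 and Diaph2 were at least 2-fold lower and Atrx, Srrm2 and Gm19951 at least 2-fold higher under all 3 treatments, among 114 genes well counted in all 3 pairs. The 3 pairs share no column, and the size of this overlap was not tested against the shares of the pairs. Of the 114 genes, 14 were above and 67 below WT in all 3.

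In CON, 87 of 857 well counted genes were higher in Med14S983A (10.2%) and 277 lower (32.3%). In FSK, 24 of 613 were higher (3.92%) and 106 lower (17.3%). In Ex-4, 13 of 130 were higher (10%) and 56 lower (43.1%). Few of these were unlisted, 1 higher and 3 lower in CON, 2 higher in FSK and 1 lower in Ex-4. Intervals were apart for 33 higher and 129 lower listed genes in CON, 6 and 16 in FSK and 7 and 19 in Ex-4. The median ratio was 0.672 in CON, 0.762 in FSK and 0.569 in Ex-4, and with the median set to 1 the split of higher to lower turned in CON (168 and 94) and Ex-4 (32 and 17), and became 49 and 55 in FSK. With no minimum, and a difference of 1 in log2(CP10K + 1) as the threshold, it was 286 and 339 in CON, 424 and 369 in FSK and 706 and 955 in Ex-4.

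Cadm1, a cell adhesion molecule, had 142 counts in WT CON and 30 in Med14S983A CON, 226 and 30 in FSK, and 15 and 6 in Ex-4. The ratios were 0.189 (0.123 to 0.282), 0.438 (0.289 to 0.643) and 0.455 (0.145 to 1.24). Sash1, a scaffold of Toll-like receptor signalling, had 64 and 32 counts in CON, 121 and 12 in FSK and 18 and 3 in Ex-4 (ratios 0.448, 0.328 and 0.190). For both genes the mutant column was the lower of each pair. Diaph2, a formin that nucleates actin, had ratios of 0.493, 0.405 and 0.379. The median ratios of the pairs were 0.672, 0.762 and 0.569. Relative to these, Cadm1 was past 2-fold lower only in CON, Sash1 only in FSK and Ex-4, and Diaph2 in no pair.

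The 3 higher genes were also above WT in other cell types in CON, with ratios over beta, alpha, delta, endothelial and muscle nuclei of 5.68 to 6.97 for Gm19951, 1.66 to 2.37 for Atrx and 2.32 to 4.98 for Srrm2. Gm19951, of the ribosomal RNA linked list, had 36 and 275 counts in CON, 44 and 34 in FSK and 42 and 158 in Ex-4 (ratios 6.84, 2.55 and 4.28), with 1.10 in the beta cells of FSK and 4.03 in those of Ex-4. Atrx, a chromatin remodeller, had ratios of 4.48, 2.03 and 2.28, with 1.07 in the beta cells of FSK and 1.15 in those of Ex-4. Srrm2, a splicing factor, had ratios of 3.93, 2.09 and 3.30. In FSK the intervals of Atrx (0.730 to 5.29) and Srrm2 (0.923 to 4.53) included 1.

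Lrmda, the most counted gene of the identity set, had 547 and 135 counts in CON (ratio 0.221, 0.182 to 0.267), 778 and 128 in FSK (0.543, 0.447 to 0.656) and 129 and 21 in Ex-4 (0.185, 0.111 to 0.295). Cd36 had 177 and 31 counts in CON, a ratio of 0.157 (0.103 to 0.231), and 157 and 29 in FSK, a ratio of 0.610 (0.396 to 0.911). The mutant was thus lower for both genes in each pair in which they were counted. Other low extremes in CON with intervals apart were Gas7 (24 and 0 counts, at least 8.94-fold lower), Oxr1, Prkg1 and Eepd1 (39 and 7), and the high extremes were Unc80 (2 and 18), Gm19951, Cdk8, Prrc2c (8 and 47) and Airn.

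Cdk8, which is in the ribosomal RNA linked list as well as a Mediator subunit, had 80 counts in WT CON and 492 in Med14S983A CON, a ratio of 5.51 (4.34 to 7.07). The ratio was 4.55 in beta, 4.95 in alpha, 4.34 in delta, 3.55 in endothelial and 3.87 in muscle nuclei. It was not repeated under FSK, where it was 0.772 (0.550 to 1.07), and was 1.65 (1.21 to 2.27) under Ex-4.

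In FSK the lowest ratios with intervals apart were those of the kinase Dapk1 (46 and 2 counts, ratio 0.144), Litaf (43 and 2), the splicing regulator Mbnl1 (78 and 5), Rn7sk and the deacetylase Hdac9 (84 and 8), and the highest of that kind those of Auts2, Ank2, Nalf1, Dst and Gm19951. Rn7sk stood the other way in CON, with 5 counts in WT and 19 in Med14S983A (1.20 and 4.08 CP10K), with intervals that overlapped. In Ex-4, by the same rule, the lowest were Gm47283, Skap2, Jmjd1c, the repressor Etv6 (25 and 4) and Lrmda, and the highest Gm19951, Pcsk2, Hs6st3, Srrm2 and Peg3. Pcsk2, a prohormone convertase of endocrine cells, had 11 counts in WT Ex-4 and 33 in Med14S983A Ex-4.

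Of the identity set, 61 of 116 well counted genes were lower in CON, 20 of 99 in FSK and 14 of 22 in Ex-4, and 0 were higher. The set was chosen on these same columns, so it cannot test a genotype difference. Of 19 well counted leukocyte signalling genes, 10 were lower in CON and 0 higher (median 0.486), 3 of 13 were lower in FSK (median 0.652) and 3 of 7 in Ex-4 (median 0.531); over all genes 32.3%, 17.3% and 43.1% were lower, and the medians over listed genes were 0.680, 0.757 and 0.569. The share of this list was above that of all genes in CON and close to it in Ex-4. Of the lineage transcription factors, 4 of 7 were lower in CON, 0 of 4 in FSK and 2 of 3 in Ex-4, and Mitf stood at 0.360, 0.989 and 0.501. Of the lysosome, lipid and iron genes, 8 of 13, 1 of 12 and 3 of 3 were lower, with medians of 0.394, 0.627 and 0.379; the share in FSK was below that of all genes. Of the ribosomal RNA linked genes, 7 of 9 were higher in CON, 1 of 8 in FSK and 2 of 8 in Ex-4. The ribosomal RNA linked share was 11.9% against 4.08% in CON, 3.51% against 3.29% in FSK and 18.0% against 8.97% in Ex-4. The summed beta cell markers stood at 14.4 against 8.15 CP10K in CON, 4.11 against 5.39 in FSK and 9.40 against 6.49 in Ex-4. The part of either in the ratios was not tested, and genotype, islet preparation and barcode wells cannot be told apart. The same holds for treatment in the FSK and Ex-4 comparisons.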

How the data were processed

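Single nucleus RNA-seq of hand-picked, cultured islets was processed by the authors with split-pipe 1.4.0 against mouse genome mm39 and with Seurat 5.3.0. Nuclei beyond the outer 15th percentiles of counts or genes or over 1% mitochondrial reads were removed, samples were reduced to 2500 nuclei each, and clusters were named from their top 10 markers. The annotation release, doublet treatment and whether pooled counts were raw or corrected are not given in the sources used here. The deposited values are natural log values computed by the authors, ln(1 + CP10K), over 17362 genes in 54 columns, of which 0 were left unused. Undoing the log and scaling gave whole counts for 100% of values within 0.001 (largest distance 6.39e-05).

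The macrophage columns, the gene lists and the comparisons were chosen with earlier results of these data known. Analyses ran in Python 3.11.15 with numpy 2.4.6, pandas 2.3.3 and scipy 1.17.1. Identity level was summed counts over summed column totals, for genes with at least 20 macrophage counts and a 4-fold difference from every other cell type. Conditions were compared as a ratio of CP10K, with at least 20 counts over both columns, 2-fold thresholds, and a floor of 3 counts for a column at 0. Ratio intervals are exact conditional intervals. Named genes were the 4 markers, Med14, list members with the most counts, the 20 highest identity folds, in each comparison the 5 highest and 5 lowest ratios with Poisson intervals apart, and all genes past 2-fold the same way in both genotypes or under all 3 treatments; genes unlisted in a condition were passed over, a choice made after seeing the data. Some genes that the rule names are not reported here. Lrmda was named for its counts after its values were seen. The comparison step was tested on simulated data. Column totals of 14604 to 48223 make 1 count worth 0.207 to 0.685 CP10K. Reads of overlapping or antisense genes were not separated.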

Additional observations from a re-analysis of the deposited data

Results flagged for a closer look

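In 2 genes FSK or Ex-4 went with opposite changes past 2-fold in the macrophages of the 2 genotypes, with Poisson intervals apart in each pair; with 1 pooled column per condition this difference between genotypes was not tested. The FSK ratio of Cdk8 was 2.174 in WT (80 counts in CON, 201 in FSK) and 0.3048 in Med14S983A (492 and 47). Cdk8 is in the ribosomal RNA linked list, whose share of counts was 4.08% and 3.29% in the WT pair and 11.9% and 3.51% in the Med14S983A pair; the part of this was not tested. The Ex-4 ratio of Gm47283 was 2.887 in WT (29 and 34 counts) and 0.2041 in Med14S983A (46 and 3). In beta cells the ratios of Gm47283 were 1.98 and 0.835.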

How the results depend on the processing

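No paired analysis was possible because each condition has 1 pooled column. The number of genes past 2-fold, in the order FSK in WT, FSK in Med14S983A, Ex-4 in WT, Ex-4 in Med14S983A, genotype in CON, genotype in FSK and genotype in Ex-4, was 121, 151, 145, 121, 364, 130 and 69. With a minimum of 40 counts it was 25, 42, 47, 24, 143, 40 and 17. With no minimum and a difference of 1 in log2(CP10K + 1) it was 270, 931, 813, 891, 625, 793 and 1661, and with the minimum kept on that scale it moved for FSK in WT (67) and genotype in CON (219). Asking also for Poisson intervals that do not overlap, a choice made after seeing the data, gave 47, 45, 64, 31, 166, 24 and 27; these totals include unlisted genes set to 3 counts, which the counts of intervals apart in the report leave out. Rescaling without ribosomal RNA linked and mitochondrial genes, setting the median ratio to 1 and leaving out unlisted genes (the last chosen after seeing the data) kept every count within 1.5 times. The identity count of 160 ranged from 131 to 167 when each condition was left out in turn and stayed within 1.5 times under all other settings tried, from 123 to 184. The median marker fold of 165.5 ranged from 121 to 390.8 when each condition was left out; it was 390.8 without WT CON and 289.2 without Med14S983A FSK. Without ribosomal RNA linked and mitochondrial genes, the macrophage share of counts was 1.263% in Med14S983A CON and 0.4248% in WT Ex-4, outside the counting intervals of 1.24% and 0.417%, and within them in the other 4 conditions. At these depths the exact 95% Poisson upper limit for a listed gene at 0 counts is 2.53 CP10K in Med14S983A FSK and 0.765 CP10K in WT FSK.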
